A study of Mus musculus with 16 samples.

Results

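Glycolysis is the chain of cytosolic reactions that turns glucose into pyruvate and, with lactate dehydrogenase, into lactate. The genes described here are 10 enzymes of that chain, Hk2, Gpi1, Pfkl, Aldoa, Tpi1, Gapdh, Pgk1, Pgam1, Pkm and Ldha, taken by gene name from an RNA-seq table of inguinal white adipose tissue (iWAT). The names matched 11 of the 54532 rows of the table, because Aldoa has a second row. Gapdh was selected on its low measured level in these libraries, so its values are given as a description without a test, and the other 9 enzymes were selected as members of the pathway.

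The 16 libraries came from male mice, 4 in each of 4 groups, that started the experiments at 8 to 10 weeks of age and ate chow with 200 mg/kg doxycycline for 5 days. Has2_TG mice carried Apn-rtTA and TRE-Has2, so that doxycycline switched on the hyaluronan synthase Has2, and Has2_WT mice were their littermates with Apn-rtTA alone. PH20_TG mice carried Apn-rtTA and TRE-PH20, which encodes the hyaluronidase PH20 (gene Spam1), and PH20_WT mice were their littermates with Apn-rtTA alone. The adiponectin (Apn) promoter directs rtTA, and with it each transgene, to adipocytes, whereas the RNA came from the whole fat pad.

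Hexokinase traps glucose in the cell, phosphofructokinase commits it to glycolysis, and pyruvate kinase releases pyruvate at the end, and these are the steps at which the flux is classically controlled. In white adipocytes, glycolysis also supplies glycerol 3-phosphate for triglyceride synthesis and pyruvate for mitochondria and fatty acid synthesis. Hyaluronan is built from UDP-glucuronic acid and UDP-N-acetylglucosamine, which are made from glucose 6-phosphate and fructose 6-phosphate, the first intermediates of the same chain.

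The libraries held 14421692 to 26751729 reads on genes. Has2 was at 2.59 ± 0.631 FPKM (SD, n = 4) in Has2_TG and at 0.585 ± 0.176 FPKM (SD, n = 4) in Has2_WT. In the PH20 line it was at 0.330 to 0.897 FPKM in PH20_WT, and in PH20_TG1 to PH20_TG4 at 3.32, 0.380, 0.0990 and 3.26 FPKM, so that 2 PH20_TG libraries were above the highest Has2_TG library (3.24 FPKM). FPKM is the number of fragments per kilobase of gene length, scaled to the size of the library. Spam1 had 5 to 12 reads in 3 PH20_TG libraries and 0 reads in the library labelled PH20_TG1 and in the other groups. White adipocyte markers were high in every library (mean log2 level of 8 markers 8.26 to 9.64). The summed level of 9 B cell markers ranged from 2.24 to 329 FPKM in Has2_WT and from 3.93 to 335 FPKM in PH20_WT, against 1.77 to 3.22 FPKM in Has2_TG and 2.23 to 3.69 FPKM in PH20_TG. The summed level of 12 skeletal muscle markers ranged from 24.1 to 109.8 FPKM in Has2_WT, 7.92 to 862 FPKM in Has2_TG, 242 to 1019 FPKM in PH20_WT and 10.5 to 284 FPKM in PH20_TG. The part of these cells in the enzyme differences was not tested beyond fits with their score as a covariate.

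The enzymes differed widely in level, and are given here in the order of FPKM, which is per length of the gene model in the table. Aldoa, the aldolase of most tissues, was the highest, with a median of 771 FPKM over the 16 libraries and rank 37 of all genes in the table. Ldha, the lactate dehydrogenase subunit A, followed with a median of 399 FPKM. Tpi1 (triose phosphate isomerase, 156 FPKM) and Pkm (pyruvate kinase, 145 FPKM) came next, and Tpi1 was above Pkm in 11 of 16 libraries, so that their order was not fixed. Pgk1 (phosphoglycerate kinase, 93.1 FPKM) was above Pgam1 (phosphoglycerate mutase, 75.5 FPKM) in 12 of 16 libraries. Gpi1 (glucose phosphate isomerase, 53.8 FPKM), Pfkl (the liver-type phosphofructokinase, 37.2 FPKM) and Hk2 (hexokinase 2, 19.6 FPKM) were at the lower end, in this order in all 16 libraries. Gapdh, glyceraldehyde 3-phosphate dehydrogenase and a widely used reference gene, had a median of 2.7 FPKM and rank 9219. It was above Hk2 in 4 of 16 libraries. The gene length in the table was 1.03 (Pgam1) to 3.25 (Gapdh) times that of the principal transcript. Per length of that transcript, the medians of Pkm (297) and Tpi1 (268) changed places, Gpi1 (120.3) came above Pgk1 (114) and Pgam1 (77.9), and Aldoa and Ldha stayed at the top and Hk2 and Gapdh at the bottom.

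On GRCm38, Hk2 lies at chr6:82725025-82774454 and Tpi1 at chr6:124810586-124814296, both on the minus strand. Gpi1 (chr7:34201330-34230336) and Aldoa (chr7:126795234-126800751) lie on the minus strand of chromosome 7 and Ldha (chr7:46841475-46855627) on its plus strand. Pfkl is at chr10:77986947-78010083 (minus strand), Pgk1 at chrX:106187100-106203699 (plus strand), Pgam1 at chr19:41911871-41918664 (plus strand) and Pkm at chr9:59656368-59679375 (plus strand). Hk2, Gpi1, Aldoa, Tpi1 and Pkm each overlap another annotated gene, and whether reads were counted by strand is not given in the sources used here.

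**Figure D1:**
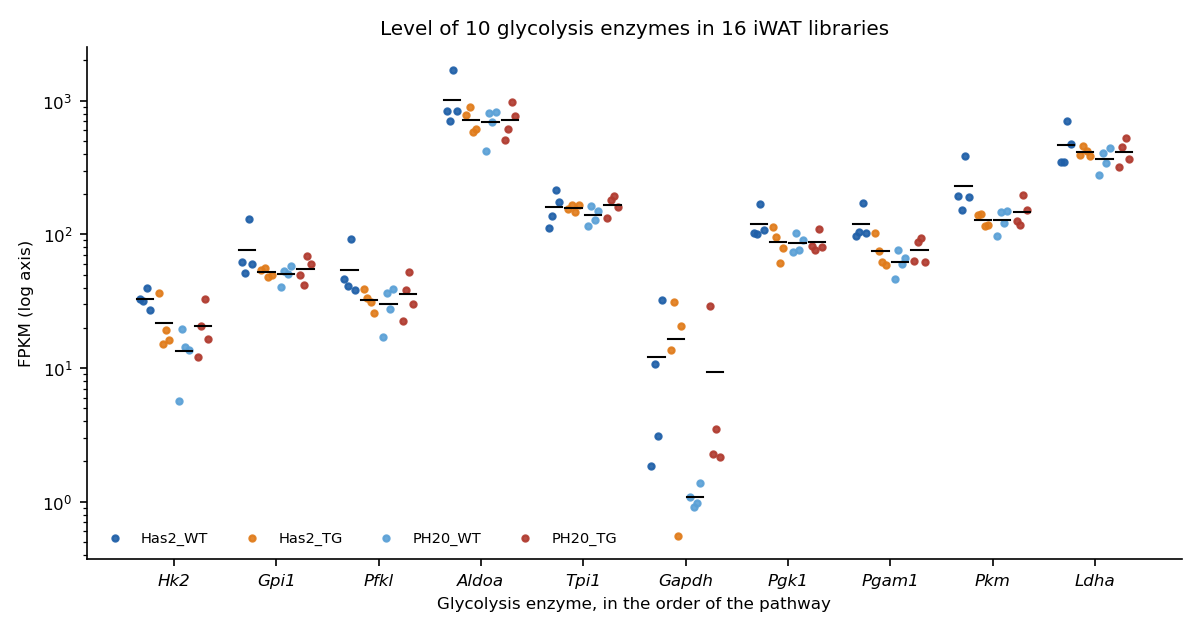
FPKM (log axis) of the 10 enzymes in pathway order; each point is a library, colours mark the 4 groups and black bars the group means. Aldoa and Ldha lie at the top, and Gapdh alone spreads over 58.1-fold, from 0.556 to 32.3 FPKM.

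Gapdh (ENSMUSG00000057666, minus strand of chromosome 6 of GRCm38, 125161715 to 125166467) had between 43 and 2549 reads per library, against 17262 to 39570 reads for Ldha. Its FPKM was 1.86, 10.7, 3.11 and 32.3 in Has2_WT1 to Has2_WT4. In Has2_TG1 to Has2_TG4 it was 13.7, 31.0, 0.556 and 20.6. It was 1.08, 0.907, 0.981 and 1.37 in PH20_WT1 to PH20_WT4, and 29.3, 2.29, 3.51 and 2.17 in PH20_TG1 to PH20_TG4. The libraries fell into 10 with low values (up to 3.51 FPKM) and 6 with values from 10.7 FPKM up, a gap of 3.04-fold. The 6 were Has2_WT2, Has2_WT4, Has2_TG1, Has2_TG2, Has2_TG4 and PH20_TG1, so high and low libraries occurred side by side in 3 of the 4 groups, and all PH20_WT libraries were low. The SD of its log2 level over the 16 libraries was 1.98, larger than that of 99.1% of the 12593 genes that averaged 50 reads or more.

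The mRNA of Gapdh has many near-identical copies in the genome. Its principal transcript (1272 bases, 7 exons) was compared with all annotated transcripts of GENCODE release M21 in windows of 100 bases. Of its 1173 windows, 1006 (85.8%) also occurred in another annotated gene, and all of these were found in the processed pseudogene Gm7336 on chromosome 7 (51746647 to 51747878, plus strand). In all, 86 annotated genes shared at least 1 window, and 79 of them are processed pseudogenes. STAR's gene counts, which the authors used, leave out reads that map equally well to several places. The sequences below show how close some of the copies are. They give coding bases 334 to 393 of Gapdh, counted from the A of the start codon and lying in exon 4 (chr6:125162969-125163028, minus strand), and the same stretch of 4 copies, all from GRCm38. Capitals mark the positions at which any of these copies differs from Gapdh, and in the copies the differing base.
Gapdh: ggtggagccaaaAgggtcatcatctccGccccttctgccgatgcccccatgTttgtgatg
Gm12671: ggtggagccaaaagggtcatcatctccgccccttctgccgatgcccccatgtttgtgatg
Gm5559: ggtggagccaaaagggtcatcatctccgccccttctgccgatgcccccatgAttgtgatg
Gm12070: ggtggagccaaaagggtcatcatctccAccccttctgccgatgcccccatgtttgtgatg
Gm13394: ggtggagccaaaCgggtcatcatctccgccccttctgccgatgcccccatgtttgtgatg

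The stretches of the copies lie at chr4:91852277-91852336 (minus strand) for Gm12671, chr5:95862047-95862106 (plus strand) for Gm5559, chr11:26786966-26787025 (plus strand) for Gm12070 and chr2:28934217-28934276 (minus strand) for Gm13394. The 10 copies that shared at least 800 windows were aligned with the whole coding sequence of 1002 bases. Gm12671, Gm10359 and Gm7336 had 0 differences from it, and over the 16 libraries they had 0, 3 and 5765 reads. Gm7336 also extends past the coding sequence, where it differs from Gapdh. Gm5559 differed at 1 base (T385A) and had 2032 reads, and Gm12070 differed at 1 base (G361A) and had 794 reads. Gm13394 differed at 1 of 1000 aligned bases (A346C) and had 483 reads. In all, 7 of the 10 copies had a single coding difference, and their reads ranged from 28 to 2032, so that copies equally close to Gapdh had very unequal counts.

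Over all 16 libraries, 12092 reads were counted to Gapdh and 11823 to the 86 other genes, 48.8% of the latter to Gm7336. Scaled to the reads on all genes of a library (RPM), the copies had 21.9 to 87.9 RPM, with the lowest value in Has2_TG3 and the highest in Has2_WT3. Gapdh had 2.33 to 129.9 RPM. Its reads exceeded those of the copies in 6 of 16 libraries, the same 6 libraries in which its FPKM was high. The copies therefore had a narrower range than Gapdh itself, and their highest library was the one in which the other enzymes were highest. What part the copies have in the low and uneven Gapdh values was not tested. Gapdh also overlaps the gene Iffo1, and its FPKM was computed over a gene length of 4133 bases.

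**Figure D2:**
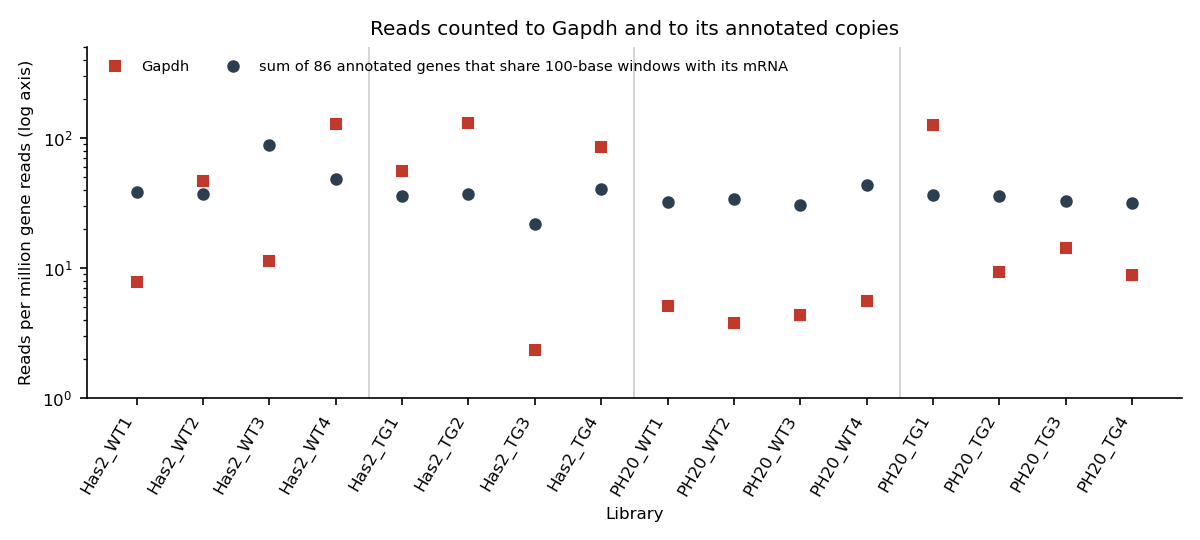
RPM (log axis), reads scaled to all gene reads of the library, counted to Gapdh (squares) and to the 86 annotated genes that share 100-base windows with its mRNA (circles, summed), in each of the 16 libraries. The circles stay between 21.9 and 87.9, while the squares run from 2.33 to 129.9 and lie above the circles in 6 libraries.

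For the other enzymes, copies took few reads. Pgk1 shared 67.0% of its 100-base windows with other genes, chiefly Pgk1-rs7, which had 3 to 47 reads per library, and Pgam1 shared 39.7% with Pgam1-ps2, which had 5 to 45 reads. The share was 9.82% for Pkm and 7.40% for Gpi1, 1.32% for Ldha and 0.796% for Tpi1, and 0 for Hk2, Pfkl and Aldoa. The reads of the nearest copy were at most 0.798% of those of the enzyme, the value for Pkm and Gm6560. Levels of Pgk1 and Pgam1 are less certain than the others for this reason. The second Aldoa row (ENSMUSG00000114515) had 0 to 52 reads and was below the minimum for testing.

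The 9 enzymes other than Gapdh moved together from library to library. All 9 were highest in Has2_WT3, where 9.56% of the genes averaging 50 reads or more were highest. Of the 9, 7 were lowest in PH20_WT1, where 12.7% of all such genes were lowest, while Tpi1 was lowest in Has2_WT1 and Pgk1 in Has2_TG3. Relative to its own mean over the 16 libraries on the log2 scale, the median enzyme was at 1.10 in Has2_WT3, 0.37 in PH20_TG3 and -0.63 in PH20_WT1. The deposited scaling was at its ends in Has2_WT3 and PH20_WT1. The total behind FPKM was 0.886 times the sum of reads in Has2_WT3, which raises every FPKM there, and 1.14 times in PH20_WT1, which lowers them. The part of this scaling in the enzyme levels was not tested. All 9 were above their means in Has2_WT3, Has2_WT4 and PH20_TG3, and all 9 were below them in PH20_WT1, PH20_WT3 and PH20_TG1. The summed level of the 9 enzymes was 2275 ± 889 FPKM (SD, n = 4) in Has2_WT, 1687 ± 223 FPKM in Has2_TG, 1564 ± 344 FPKM in PH20_WT and 1719 ± 391 FPKM in PH20_TG. Without Has2_WT3, at 3592 FPKM, the Has2_WT libraries lay between 1670.1 and 2011 FPKM.

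Some marker scores of tissue composition were also at an end of their range in Has2_WT3 and PH20_WT1. Has2_WT3 had the highest beige or brown adipocyte score of the 16 libraries, the mean log2 level of 7 markers, at 5.64 against a median of 4.14. PH20_WT1 had the lowest white adipocyte score, 8.26, and the second-lowest beige or brown adipocyte score, 2.97, with the highest T cell score, 4.43. Other libraries did not show this: Has2_TG3 had the lowest beige or brown adipocyte score, 2.11, with the median enzyme at -0.24. The part of these differences in the enzyme levels was not tested, and in bulk tissue fewer cells of a type cannot be told apart from less RNA per cell.

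**Figure D3:**
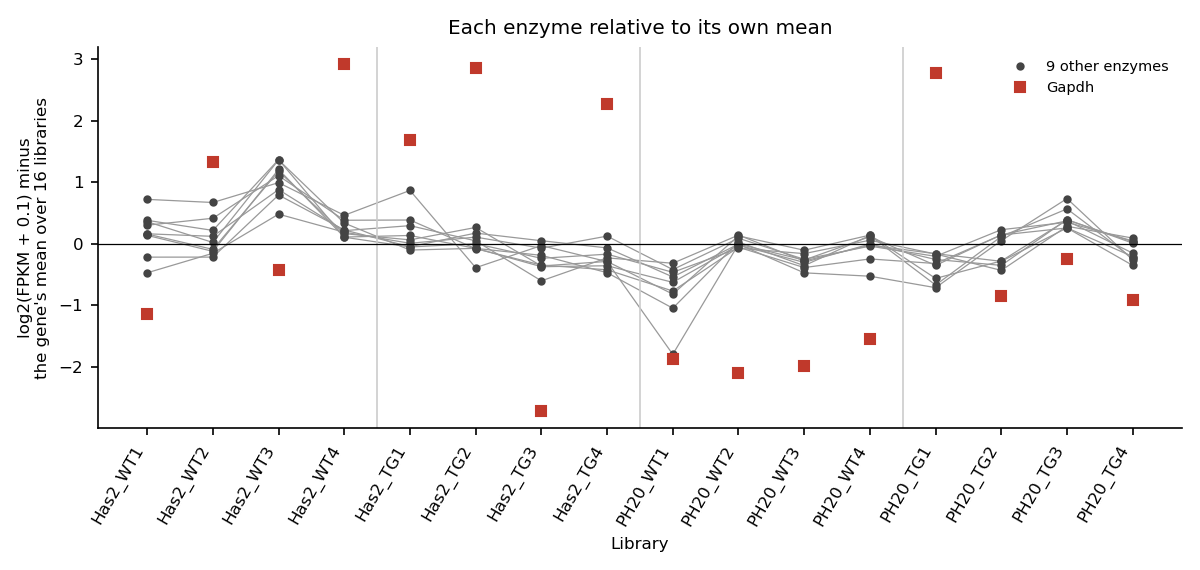
log2(FPKM + 0.1) of each enzyme minus its mean over the 16 libraries, by library; grey lines join each of the 9 enzymes and squares show Gapdh. The 9 enzymes rise together in Has2_WT3 (median 1.10) and fall together in PH20_WT1 (median -0.63), where Gapdh is at -0.42 and -1.87.

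The comparison of Has2_TG with Has2_WT asked which enzymes changed when adipocytes made more hyaluronan. Of the 9 enzymes, 4 were lower in Has2_TG at an unadjusted limma p under 0.05 (Hk2, Pfkl, Pgam1 and Pkm) and 0 were higher. In this contrast 3.75% of the 12606 genes tested were called lower and 6.25% higher. None of the 4 passed the Benjamini-Hochberg adjustment over all genes. The median difference of the 9 enzymes was -0.47 on the log2 scale against -0.03 for all genes, and 8 of the 9 estimates were below 0.

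Pkm, which makes pyruvate in the last step of the pathway, was at 192, 152, 384 and 189 FPKM in Has2_WT1 to Has2_WT4 and at 139, 142, 116 and 117 FPKM in Has2_TG1 to Has2_TG4. Every Has2_TG library was below every Has2_WT library, which held for 1 of the 9 enzymes and for 2.11% of all genes tested. The log2 difference was -0.75 (SE 0.27, limma adjusted p = 0.365). It was between -0.91 and -0.46 with each library left out in turn, and the call held in all 8 of these fits. Without Has2_WT3, the highest library, it was -0.46.

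Hk2, the insulin-regulated hexokinase of muscle and fat, was at 32.7, 31.6, 39.5 and 27.3 FPKM in Has2_WT1 to Has2_WT4 and at 36.2, 15.1, 19.4 and 16.2 FPKM in Has2_TG1 to Has2_TG4. Only Has2_TG1 lay within the range of the controls, and the other Has2_TG libraries were below it. The log2 difference was -0.67 (SE 0.27, limma adjusted p = 0.432). The call was lost when Has2_WT1, Has2_WT2, Has2_WT3, Has2_TG2, Has2_TG3 or Has2_TG4 was left out, and the difference then ran from -0.69 to -0.53.

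Pfkl, a phosphofructokinase subunit, was at 46.2, 41.2, 91.6 and 38.3 FPKM in Has2_WT1 to Has2_WT4 and at 39.0, 33.7, 31.1 and 25.6 FPKM in Has2_TG1 to Has2_TG4. The groups overlapped by 1 library on each side, Has2_WT4 and Has2_TG1. The log2 difference was -0.67 (SE 0.27, limma adjusted p = 0.448). Without Has2_WT3 it was -0.38 and no longer called, and the call was also lost without Has2_TG2, Has2_TG3 or Has2_TG4.

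Pgam1 was at 97.6, 105, 170.4 and 103 FPKM in Has2_WT1 to Has2_WT4 and at 103, 74.9, 62.3 and 59.0 FPKM in Has2_TG1 to Has2_TG4. Has2_TG1 again stood with the controls. The log2 difference was -0.67 (SE 0.23, limma adjusted p = 0.357). It was -0.48 without Has2_WT3, still called, and the call was lost without Has2_TG3 (-0.59) or Has2_TG4 (-0.56).

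The other 5 enzymes did not pass the threshold in Has2_TG. Pgk1, which makes the first ATP of the pathway, had a log2 difference of -0.47 (SE 0.24, limma adjusted p = 0.571), Gpi1 of -0.45 (SE 0.26) and Aldoa of -0.43 (SE 0.30). Without Has2_WT3, the differences of Pgk1, Gpi1 and Aldoa were -0.29, -0.15 and -0.16. Ldha was at 415 ± 32.3 FPKM (SD, n = 4) in Has2_TG and 469.8 ± 167 FPKM (SD, n = 4) in Has2_WT, a log2 difference of -0.12 (SE 0.24). Tpi1 was at 158 ± 9.94 FPKM (SD, n = 4) in Has2_TG and 159 ± 45.0 FPKM (SD, n = 4) in Has2_WT, a log2 difference of 0.03 (SE 0.20). The spread was wider in Has2_WT than in Has2_TG for 8 of the 9 enzymes by SD, and Hk2 was the exception. The Has2_WT spread includes Has2_WT3, in which all 9 were highest, and the share over all genes is not given here. Over the 9 enzymes, the number of calls was 2 without Has2_WT3 or Has2_TG2 and 1 without Has2_TG3 or Has2_TG4. The beige or brown adipocyte score differed by -0.92 between the groups (exact permutation test, two-sided, p = 0.343) and the white adipocyte score by 0.07 (exact permutation test, two-sided, p = 0.857). In the same contrast the adipocyte progenitor score was higher by 1.32 and the Schwann cell score by 0.33 (exact permutation test, two-sided, p = 0.0286 for each, the smallest that 35 splits allow), and the macrophage score differed by 0.70 (exact permutation test, p = 0.0857). Their part in the enzyme differences was not tested.

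The comparison of PH20_TG with PH20_WT asked which enzymes changed when adipocytes made a hyaluronan-degrading enzyme. Of the 9 enzymes, 0 passed the limma test at an unadjusted p under 0.05, where 3.20% of the 12532 genes tested were called higher and 3.39% lower. The 9 estimates were all above 0, with a median of 0.19 on the log2 scale against 0.01 for all genes. The direction was not the same under every scaling, since Aldoa and Pgk1 were below 0 with quantile normalization and with voom weights. When the fit took the B cell score into account, 6 of the 9 were below 0, and this score itself differed by -3.04 between the groups (exact permutation test, two-sided, p = 0.0571).

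Hk2 was at 5.64, 19.7, 14.3 and 13.7 FPKM in PH20_WT1 to PH20_WT4 and at 12.1, 20.5, 33.0 and 16.5 FPKM in PH20_TG1 to PH20_TG4. The groups overlapped, and the lowest control, PH20_WT1, and the highest transgenic library, PH20_TG3, lay at the ends. The log2 difference was 0.65 (SE 0.41, limma adjusted p = 0.755). Pgam1 had a log2 difference of 0.30 (SE 0.20), Tpi1 of 0.26 (SE 0.17) and Pfkl of 0.25 (SE 0.32). Pkm was at 147 ± 35.7 FPKM (SD, n = 4) in PH20_TG and 129 ± 24.6 FPKM (SD, n = 4) in PH20_WT, and Ldha at 415 ± 91.8 FPKM and 366 ± 71.3 FPKM. Gpi1, Aldoa and Pgk1 had differences of 0.10 (SE 0.18), 0.06 (SE 0.29) and 0.02 (SE 0.17). With the library labelled PH20_TG1 left out, in which no Spam1 read was found, 0 of the 9 enzymes were called as well.

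**Figure D4:**
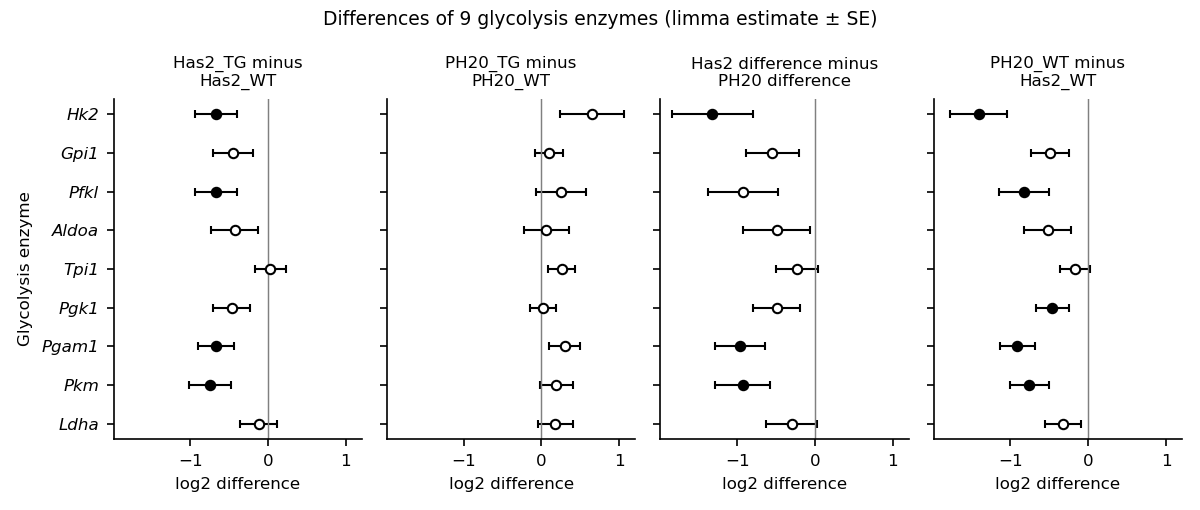
log2 differences of the 9 enzymes with their SE in 4 comparisons from limma; filled points have an unadjusted p under 0.05. The enzymes lie below 0 in Has2_TG against Has2_WT (except Tpi1 at 0.03), between 0.02 and 0.65, with none called, in PH20_TG against PH20_WT, and below 0 in PH20_WT against Has2_WT.

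The Has2 difference minus the PH20 difference was tested in a fit of all 16 libraries. Of the 9 enzymes, 3 were called lower and 0 higher, where 3.68% of the 12593 genes were called lower and 4.03% higher. They were Pgam1 (log2 difference of the differences -0.96, SE 0.32), Pkm (-0.93, SE 0.35) and Hk2 (-1.32, SE 0.52). None passed the adjustment over all genes (limma adjusted p = 0.598, 0.606 and 0.611). The median over the 9 enzymes was -0.55 against -0.02 for all genes. Pgam1 and Pkm were called with any of the 16 libraries left out, and Hk2 lost its call only without PH20_TG3, at -1.06. In the same fit, PH20_WT was below Has2_WT, with log2 differences of -0.91 for Pgam1, -0.76 for Pkm and -1.41 for Hk2. This gap between the controls makes up most or all of each of the 3 values. They cannot be read as opposed responses to the transgenes.

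The control groups differed from each other as well, although both carried Apn-rtTA alone and ate the same diet. In PH20_WT against Has2_WT, 5 of the 9 enzymes were called lower and 0 higher, where 5.61% of the 12593 genes were called lower and 4.66% higher. The called enzymes were Hk2 (log2 difference -1.41, SE 0.37), Pgam1 (-0.91, SE 0.23), Pkm (-0.76, SE 0.25), Pfkl (-0.83, SE 0.32) and Pgk1 (-0.46, SE 0.21). None passed the adjustment over all genes, the smallest limma adjusted p being 0.303. For Hk2, Pgam1 and Pkm, 3 of the 9 enzymes, every PH20_WT library was below every Has2_WT library, and 3.14% of all genes showed this. Of the 5 calls, 3 were left in number without Has2_WT3 and 3 without PH20_WT1, in both cases Hk2, Pgam1 and Pkm. Has2_WT had the highest mean FPKM of the 4 groups for 8 of the 9 enzymes, and for Tpi1 it was PH20_TG. These means include Has2_WT3, in which all 9 were highest, and the share of all genes with this order is not given here. Pkm, for example, was at 229 ± 105 FPKM (SD, n = 4) in Has2_WT, 128 ± 14.2 in Has2_TG, 129 ± 24.6 in PH20_WT and 147 ± 35.7 in PH20_TG. Line, litter and any difference in handling between the control groups cannot be told apart here.

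Many glycolysis genes have promoters with the letters ACGTG, the core of the element that hypoxia-inducible factors bind, and Ldha, Pgk1 and Hk2 are classical targets of these factors. RefSeq promoter windows (250 bases before to 50 bases after the start, GRCm38.p6) were found for all 10 enzymes, 14 windows in all, and were searched for ACGTG on both strands. The letters were in at least 1 window of 7 of the 10 enzymes, and in 21.8% of all 27025 genes with such windows. Ldha had 5 matches in 1 window, counting CACGTG on each strand, Hk2 and Pgk1 had 2 each, and Gpi1, Pfkl and Tpi1 had 0. The 250 bases before the start are shown for these 3 targets, with each match on either strand in capitals, at chr7:46845554-46845803 (plus strand) for Ldha, chrX:106186850-106187099 (plus strand) for Pgk1 and chr6:82774455-82774704 (minus strand) for Hk2.
Ldha: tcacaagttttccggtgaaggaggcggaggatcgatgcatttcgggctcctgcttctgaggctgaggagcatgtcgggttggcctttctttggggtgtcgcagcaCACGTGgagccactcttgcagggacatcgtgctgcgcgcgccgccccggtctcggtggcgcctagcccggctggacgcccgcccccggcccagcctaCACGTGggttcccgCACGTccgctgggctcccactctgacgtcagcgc
Pgk1: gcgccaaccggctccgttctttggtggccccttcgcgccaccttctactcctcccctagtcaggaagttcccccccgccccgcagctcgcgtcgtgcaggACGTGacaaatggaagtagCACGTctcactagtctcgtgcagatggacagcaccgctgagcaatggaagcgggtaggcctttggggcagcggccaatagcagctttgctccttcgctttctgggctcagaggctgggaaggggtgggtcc
Hk2: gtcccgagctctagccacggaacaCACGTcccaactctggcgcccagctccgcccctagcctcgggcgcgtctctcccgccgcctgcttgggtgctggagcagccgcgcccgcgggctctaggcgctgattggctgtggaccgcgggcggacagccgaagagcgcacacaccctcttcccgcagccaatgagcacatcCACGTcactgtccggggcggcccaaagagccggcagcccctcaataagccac

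In Has2_TG, Gpi1, Pfkl and Tpi1, with 0 matches, had log2 differences of -0.45, -0.67 and 0.03. Aldoa and Pgam1, with at most 1 match in a window, had -0.43 and -0.67. Hk2, Pgk1 and Pkm, with at most 2, had -0.67, -0.47 and -0.75, and Ldha, with 5, had -0.12. The part of these letters in the differences was not tested. Of 10 other hypoxia-responsive genes tested, 1 was higher in Has2_TG (P4ha1, a collagen prolyl hydroxylase, log2 difference 0.72, SE 0.18) and 0 were lower, with a list median of 0.13. Over all genes tested, 6.25% were called higher and 3.75% lower. In PH20_TG, 0 of the 10 were called, and 2 were called without the library labelled PH20_TG1.

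Enzymes on either side of the pathway were compared in the same fits, by lists written with results on these data already known. In Has2_TG, 3.75% of all genes tested were called lower and 6.25% higher, the shares to set beside each list. None of the listed genes passed the adjustment there, the smallest limma adjusted p being 0.0540 (Gfpt2). The glucose transporter Slc2a4 (GLUT4) was lower in Has2_TG (log2 difference -0.55, SE 0.22), as was Slc2a1 (GLUT1, -0.91, SE 0.32). These were the 2 calls among 14 transport and regulator genes, with a list median of -0.16 against -0.03 for all genes. The count was 1 without Has2_WT3, Has2_WT4, Has2_TG3 or Has2_TG4 and 0 without Has2_TG2. Among 13 tested genes that encode other isoforms of the same steps or the enolase step, 2 were lower in Has2_TG and 0 higher. The median of this list was -0.08. Eno1, the enolase of most tissues, ranged from 224 to 585 FPKM in Has2_WT and from 153 to 220.1 FPKM in Has2_TG (log2 difference -0.78, SE 0.29). Ldhb, the lactate dehydrogenase subunit B, had a log2 difference of -0.40 (SE 0.18). The count was 1 without Has2_WT1, Has2_WT2, Has2_TG2 or Has2_TG4 and 0 without Has2_TG3.

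Pyruvate leaves glycolysis through the pyruvate dehydrogenase complex, and 5 of 14 genes of that complex, its carriers and its kinases were lower in Has2_TG and 1 was higher. The list median was -0.46 on the log2 scale against -0.03 for all genes. Pdha1, the catalytic subunit, was at 172 ± 64.0 FPKM (SD, n = 4) in Has2_WT and 83.7 ± 20.4 FPKM (SD, n = 4) in Has2_TG (log2 difference -1.0, SE 0.25, limma adjusted p = 0.152). Dlat, another subunit, had -0.82 (SE 0.25) and the kinase Pdk1 -0.87 (SE 0.27). Of the 6 calls, 4 were left in number without Has2_WT3 and 3 without Has2_TG4.

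Some genes in branches that feed lipid and glycogen stores were called lower in Has2_TG, where 3.75% of all genes were. The list medians were -0.32 for glycerol 3-phosphate and gluconeogenesis, -0.20 for glycogen and -0.17 for the pentose phosphate pathway, against -0.03 for all genes. Of 9 genes of glycerol 3-phosphate and gluconeogenesis, 3 were lower, namely Gpd2 (log2 difference -1.11, SE 0.25), Gpd1 (-0.84, SE 0.26) and pyruvate carboxylase Pcx (-0.76, SE 0.33). Of 12 glycogen genes, 3 were lower, the liver-type phosphorylase Pygl (-0.86, SE 0.25), the branching enzyme Gbe1 (-0.86, SE 0.26) and the synthase Gys2 (-0.88, SE 0.27), and 0 were higher. Of 8 genes of the pentose phosphate pathway, 1 was lower, transketolase Tkt (-0.94, SE 0.31). The lists had 2, 3 and 1 calls without Has2_WT3, and the pentose phosphate list had 3 without Has2_WT1 or Has2_WT2.

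Of 9 tested genes listed by symbol for the making of UDP-sugars, 4 were higher in Has2_TG and 0 lower. The list median was 0.39 against -0.03 for all genes. Gfpt2, which takes fructose 6-phosphate out of glycolysis into the hexosamine pathway, was at 22.2 ± 6.61 FPKM (SD, n = 4) in Has2_TG and 5.61 ± 2.55 FPKM (SD, n = 4) in Has2_WT (log2 difference 2.0, SE 0.31, limma adjusted p = 0.0540). Ugdh, which makes UDP-glucuronic acid, was at 15.6 ± 2.05 FPKM (SD, n = 4) and 8.38 ± 2.14 FPKM (SD, n = 4) (log2 difference 0.91, SE 0.20). Pgm1 (0.61, SE 0.24) and Uap1 (0.39, SE 0.17) were the other 2. Gfpt1 had a log2 difference of -0.29 (SE 0.19) and did not pass. Pgm2 did not pass either (0.02, SE 0.16), and it was far above Pgm1, with mean log2 levels of 6.68 and 1.57 in Has2_WT. Which of Pgm1 and Pgm2 serves UDP-sugars in this tissue was not tested. The count was 2 without Has2_TG3 or Has2_TG4. The part of the higher adipocyte progenitor score (by 1.32 over 7 markers) in these values was not tested.

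In the PH20 line these lists held 0 called genes among the UDP-sugar, pentose phosphate and pyruvate dehydrogenase genes, and 0, 1 and 1 without the library labelled PH20_TG1. The PH20_TG libraries were unlike each other for UDP-sugar genes, and not for these alone. In PH20_TG1 to PH20_TG4, Gfpt2 was at 40.3, 3.75, 1.31 and 32.9 FPKM and Ugdh at 32.7, 10.2, 6.97 and 30.7 FPKM. For both genes PH20_TG1 and PH20_TG4 were above the highest Has2_TG library (29.5 and 18.0 FPKM). Other lists held calls at an unadjusted p under 0.05, where 3.20% of all genes tested were called higher and 3.39% lower. None passed the adjustment, the smallest limma adjusted p of any gene being 0.506. Among the transport and regulator genes, Pfkfb4, which makes and breaks down the activator of phosphofructokinase, was higher in PH20_TG (log2 difference 0.68, SE 0.18). The lactate transporter Slc16a3 was lower (-0.92, SE 0.35) and low in level, with a mean log2 level of 0.00 in PH20_WT. Other calls included genes whose products are the muscle forms of glycolysis and glycogen enzymes. Pgam2, the muscle phosphoglycerate mutase, was at 6.66, 16.7, 22.6 and 17.9 FPKM in PH20_WT1 to PH20_WT4 and at 0, 1.62, 3.43 and 7.77 FPKM in PH20_TG1 to PH20_TG4. Only PH20_WT1 and PH20_TG4 overlapped. Eno3, the muscle enolase, was lower in PH20_TG (log2 difference -1.45, SE 0.34), as were Pygm, the muscle phosphorylase (-2.47, SE 0.61), and Fbp2 (-1.54, SE 0.29). Among calls that are not muscle forms, Gpd1l was lower (-0.39, SE 0.14) and Gapdhs was higher (0.92, SE 0.40). The skeletal muscle score of 12 markers was 0.35 in PH20_TG and 3.79 in PH20_WT, a difference of -3.44 (exact permutation test, two-sided, p = 0.0571, where 0.0286 is the smallest possible). Its part in these isoforms was not tested beyond fits with the score as a covariate, whose values for them are not given here. In the Has2 line the score differed by -0.01 (exact permutation test, p = 1.00). The 9 enzymes themselves were not called in PH20_TG with this score as a covariate either.

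**Figure D5:**
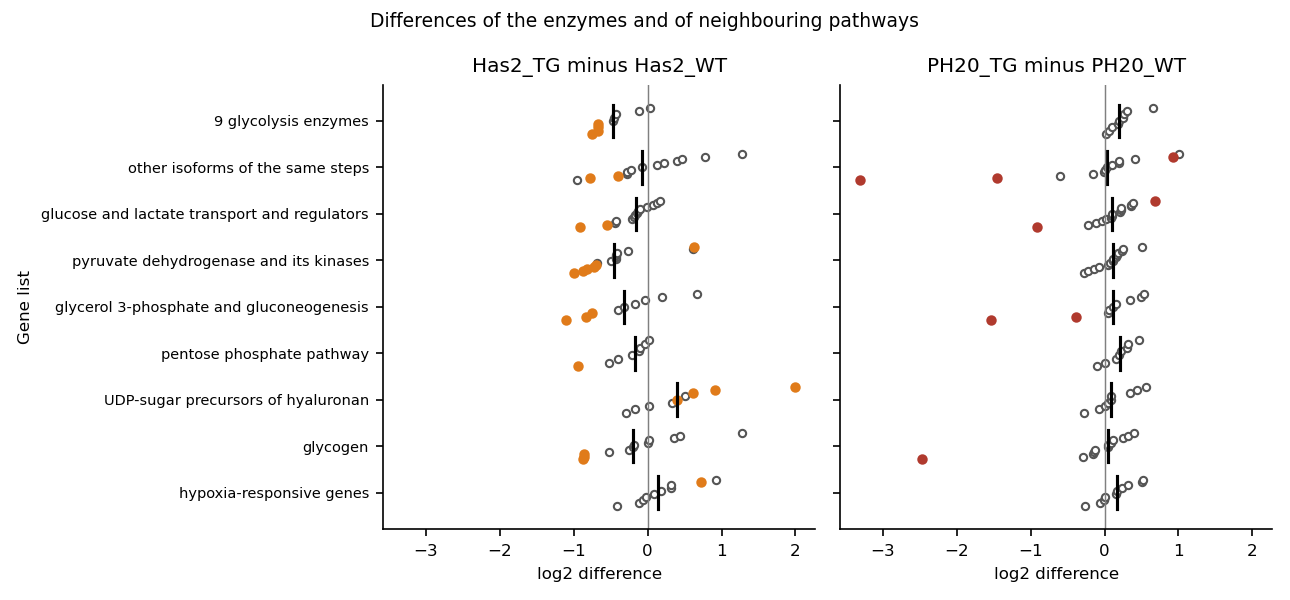
log2 differences of single genes (points) in the 9 glycolysis enzymes and in 8 lists of neighbouring pathways, for Has2_TG against Has2_WT (left) and PH20_TG against PH20_WT (right); filled points have an unadjusted limma p under 0.05 and bars are list medians. In Has2_TG the enzymes and the pyruvate dehydrogenase list have medians of -0.47 and -0.46, and the UDP-sugar list has one of 0.39.

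The genes with profiles most like the enzymes were sought among the 12593 genes averaging 50 reads or more, by Pearson's r of log2(FPKM + 0.1) over the 16 libraries, which share tissue, depth and the libraries that stand apart. The mean profile of the 9 enzymes was followed most closely by Ddhd2 (r = 0.97), Pdhb (r = 0.97), Eno1 (r = 0.97), Dlat (r = 0.96) and Atp5a1 (r = 0.95), and without Has2_WT3 these values were 0.92 to 0.94. Pdhb and Dlat encode subunits of pyruvate dehydrogenase. Each of the 9 enzymes had an r of 0.72 (Tpi1) to 0.96 (Pfkl) with this mean profile, which contains the enzyme itself and so raises its r. Gapdh, which is not part of the mean, had an r of 0.14, so its value is not directly comparable with theirs. Without Has2_WT3 the enzymes had 0.60 (Tpi1) to 0.93 (Pfkl), and Gapdh had 0.28. The profiles most like that of Gapdh were those of Pabpc1l (r = 0.75), Otub2 (r = 0.71), Zmynd19 (r = 0.71), Kat14 (r = 0.69) and Atg5 (r = 0.69).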

How the data were processed

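Bulk RNA-seq of iWAT was analysed in 16 libraries, 1 per mouse. The authors checked reads with FastQC (0.11.9), aligned them to GRCm38 with STAR (2.7.9a) and a GENCODE annotation, summarised the quality with MultiQC (1.12), counted reads per gene with STAR and tested genes with DESeq2. The authors deposited FPKM per gene with the gene length. Multiplied back by length and library total, 100.0% of values came out as whole reads (tolerance 0.01). The deposited total differed from the sum of reads by a factor of 0.886 (Has2_WT3) to 1.14 (PH20_WT1), so a scaling between libraries is included. Libraries held 14421692 to 26751729 reads on genes.

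Genes averaging 50 reads or more were tested on log2(FPKM + 0.1) with limma (3.58.1, R 4.3.3), two-sided, with a variance trend, so that fold changes of low genes are understated. Each line was fitted on its own 8 libraries, and the difference between the lines and that between the controls on all 16. A gene was called at an unadjusted p under 0.05, the study's threshold, with Benjamini-Hochberg values over all genes. The fits were tested on simulated data. Marker scores are mean log2(FPKM + 0.1), compared by exact permutation over 35 splits. P-values measure the spread between these mice only.

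The members and gene lists were chosen with earlier results of these data known. All members were named in each comparison, the 3 genes of smallest p per list and line were eligible to be named, and the 5 genes of highest r for each profile were named. The alternatives tried were log2(FPKM + 1), testing genes without any read minimum, a cutoff on mean FPKM (1) in its place, voom weights on recovered reads, quantile normalization, size factors by median of ratios, no variance trend, 1 fit of all libraries, the replicate block, muscle or B cell score as covariate, and each library left out. Leave-one-out counts for the lists were added after the data were seen. Of the table's gene identifiers, 54495 are in GENCODE M21. Copies were searched in its transcripts, and promoters are from RefSeq (GRCm38.p6).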

Additional observations from a re-analysis of the deposited data

Results flagged for a closer look

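Within a group of 4 libraries, a value was looked at again when its gap to the nearest of the others, as a share of the range, passed Dixon's 95% limit, which chance gives in about 1 of 20 groups, and 40 sets of 4 were examined. In Has2_WT this held for 5 enzymes, each time for Has2_WT3. All 9 enzymes other than Gapdh were highest in that library, as were 9.56% of genes averaging 50 reads or more, so these 5 are not separate results. The share of all genes that passed the limit is not given here. Gpi1 was at 129.6 FPKM there against 61.7 in the next library, Pfkl at 91.6 against 46.2, Aldoa at 1688 against 835.7, Pgk1 at 169.9 against 107.0, and Pgam1 at 170.4 against 105.5. Gapdh, which is in these sets, was at 29.3 FPKM in PH20_TG1 against 3.51 in the next PH20_TG library. Because Gapdh was selected on its level, this is given as a description and not as a test.

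The Has2 and PH20 differences were unequal for Hk2, by -1.32 on the log2 scale, for Pgam1, by -0.96, and for Pkm, by -0.93. Each was lower in Has2_TG than in Has2_WT and had an estimate above 0 in the PH20 line that did not pass the test. Each was also called lower in PH20_WT than in Has2_WT, with log2 differences of -1.41 for Hk2, -0.91 for Pgam1 and -0.76 for Pkm. That gap between the controls makes up most or all of each of these values. They cannot be read as opposed responses to the transgenes.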

How the results depend on the processing

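In Has2_TG against Has2_WT, 3 to 5 of the 9 enzymes were called under the 11 alternatives that kept all 8 libraries, and 1 to 5 with a library left out. In PH20_TG against PH20_WT, 0 were called, also with a library left out (0 to 0), except for 1 (Hk2) with the replicate block. For the difference between the lines, 3 to 4 were called under the alternatives that kept all libraries, except for 7 with the skeletal muscle score as covariate, and 2 to 4 with a library left out. For the controls the counts were 4 to 7, and 3 to 6 with a library left out.

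Replicate numbers were shared by the groups, and same-numbered libraries correlated above 0.1 in 3 of 8 pairs (r from -0.18 to 0.42). In 3 pairs the control library correlated most with the transgenic library of its own number. Whether the numbers mark pairs of mice cannot be told from so few correlations, and the main fits used no pairing. With the replicate block the counts were 4 in the Has2 line, 1 in the PH20 line and 4 for the difference between them.

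Signs turned only among differences that were not called. In the PH20 line, with the B cell score as covariate, Gpi1 was at -0.10, Pfkl at -0.25, Aldoa at -0.33, Pgk1 at -0.19, Pkm at -0.10, Ldha at -0.11 and Pdpr at 0.03. Quantile normalization gave -0.02 for Aldoa and -0.07 for Pgk1, voom weights -0.02 and -0.05, and the muscle score put Phka1 at 0.01. In the Has2 line, Tpi1 was at -0.27 with the B cell score. With a library left out, Tpi1 ran from -0.13 to 0.19 and Ldha from -0.24 to 0.10 in the Has2 line, and Gpi1 from -0.01 to 0.23, Aldoa from -0.16 to 0.21 and Pgk1 from -0.10 to 0.11 in the PH20 line. The cause was not tested.

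The muscle score difference in the Has2 line was 0.55 with a pseudocount of 1 and -1.22 to 1.07 with a library left out, and in the PH20 line -4.35 to -2.78. Under voom weights, which leave out the deposited scaling, the median of all genes moved from 0.01 to 0.12 for the controls, and the share of calls that were higher went from 45.4% to 72.5% there, from 48.5% to 27.7% in the PH20 line and from 52.3% to 70.8% for the difference between the lines. Each of the 9 enzymes had at least 771 reads in every library and Gapdh at least 43, so counting error bears most on Gapdh.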
